A study of Drosophila melanogaster with 6 samples.

Results

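The cytoplasmic ribosomal protein genes encode the proteins of the large (RpL) and small (RpS) ribosomal subunits. They were taken as every gene of the deposited table whose symbol begins with RpL and a digit or P, or with RpS and a digit, together with sta, the fly gene of the small subunit protein known elsewhere as RpSA. The rule gave 93 of 17830 genes, 54 of the large and 39 of the small subunit, and used no measured value. Genes of the mitochondrial ribosome (mRp symbols) do not meet it. RNA came from Drosophila melanogaster S2 cells, an embryonic line with features of macrophages, in 3 libraries of the genotype labelled Brr2 knockdown and 3 control libraries of the genotype labelled WT, with RNA interference as the labelled treatment of both. Per the labels, cells at 25 °C were given 8 μg of double-stranded RNA, while the sample titles carry the prefix sh. A preincubation of 30 min and 10% serum are also given there, the same for both groups. The labels name neither the RNA given to control cells nor the time of harvest, and they do not say whether the replicates were separate cultures, so p-values reflect how far these libraries differ, in part perhaps for technical reasons. The libraries were made from total RNA after a step that removes ribosomal RNA, and counts of rRNA genes remained. In such bulk RNA, fewer cells with a message and less of it per cell cannot be told apart.

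Ribosomes need their proteins in matched amounts, and flies are sensitive to the dose of many of these genes: flies with a single working copy show the Minute phenotype of slow growth and thin bristles. Ribosomal protein mRNAs are short, abundant and spliced, and in flies many of their introns hold snoRNA genes, whose products guide the modification of ribosomal RNA. Some of these genes have a paralog, which is often used mainly in gonads. Brr2 is the helicase that unwinds U4 from U6 snRNA when the spliceosome is activated.

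Totals were 127654975 to 147620403 estimated counts per library, which makes the spread between libraries and not counting error the limit for abundant genes. The targeted gene, listed as l(3)72Ab, was at 100.8 ± 7.3 CPM in knockdown and 192.6 ± 31.9 CPM in control libraries (SD, n = 3 each; edgeR adjusted p = 0.0111). CPM are counts relative to the library total (the usual CPM unit) after scaling by TMM, a method that assumes that most genes do not differ. Of the 8 hemocyte markers, srp, ush and crq were at 1 CPM or more in every library, whereas Hml, NimC1 and Sr-CI had means under 1 CPM in both groups. The hemocyte marker Pxn fell to 1.35 ± 0.439 CPM in knockdown libraries, against 9.09 ± 1.98 CPM in control libraries (SD, n = 3 each; edgeR adjusted p = 0.00423). He moved the other way, at 3.11 ± 1.2 CPM in knockdown and 0.322 ± 0.154 CPM in control libraries (SD, n = 3 each; edgeR adjusted p = 0.00903). The summed level of the 8 markers was 355.3 to 405.9 CPM in knockdown and 370.2 to 506.8 CPM in control libraries. Of 4 germline markers, vas, nos and bam stayed under 1 CPM in every library, and the list summed to 51.2 to 91.7 CPM in knockdown and 11.4 to 25.9 CPM in control libraries. The remaining marker, aub, was at 64.2 ± 22.9 CPM in knockdown and 15.7 ± 8.66 CPM in control libraries (SD, n = 3 each; edgeR adjusted p = 0.0191). The ovarian marker tj was under 1 CPM throughout, and of the neuronal markers nSyb was too, while elav was at 23.2 ± 1.59 CPM in knockdown and 29.5 ± 3.62 CPM in control libraries.

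The 93 genes lay on chromosomes 2L (19), 2R (21), 3L (14), 3R (23), 4 (1) and X (15) in the annotation of build BDGP6.54. Their annotated exons spanned 288 to 3835 bases, with a median of 903, and 87 of them had at least 1 intron in some transcript. The 6 genes without an annotated intron were RpLP2, a protein of the stalk, and the second copies RpL10Aa, RpL37b, RpS10a, RpS15Ab and RpS28a. The annotation places 75 snoRNA genes inside introns of 29 of the ribosomal protein genes, on the same strand, with up to 14 of them in RpS5a. Exons of 32 of the 93 genes overlap exons of another gene. RpL7-like shares 1771 bases with CG34164, RpL23A 421 with Uhg7 and RpL22 377 with lncRNA:CR42491 on their own strand, while RpS9 shares 512 and RpL3 412 with antisense RNA genes, and RpL24 273 with CG7099 on the other strand. The sources used here do not give how strand was counted, so reads of such partners could not be told apart.

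As a class these were among the most abundant messages of the cells. Of the 100 most abundant protein-coding genes by mean CPM, 70 were ribosomal protein genes, as were 37 of the top 50 and 12 of the top 20. They held 11.3% ± 0.562 of all estimated counts in knockdown and 15.3% ± 1.67 in control libraries, and 23.3% ± 1.66 and 23.6% ± 2.37 of the counts of protein-coding genes (SD, n = 3 each, knockdown before control). So the share of all counts was lower in every knockdown library, whose range was 10.7% to 11.8% against 13.5% to 16.8% in control libraries, while the share of protein-coding counts overlapped between the groups. Genes with rRNA in the symbol held 11.4%, 10.9% and 10.2% of all counts in knockdown libraries, against 11.6%, 10.4% and 0.157% in control libraries. Control replicate 3 thus stood apart, and the other 5 libraries were close together. Of the 11 such genes tested, with a median log2 fold change of 0.78, edgeR called 0 (0 also at an unadjusted p under 0.05). With the counts of these genes taken out of the total, a choice made after seeing the data, ribosomal protein genes held 13.3%, 12.0% and 12.7% in knockdown libraries, against 18.9%, 15.0% and 15.7% in control libraries, again without overlap. Per kb of exon, among the highest mean levels were those of RpL41, the smallest ribosomal protein, at 6310 CPM per kb in knockdown and 8095 in control libraries, and of RpS7, RpL31 and RpLP1, at 3977 to 4142 CPM per kb in knockdown and 3709 to 5084 in control libraries. RpL41 is also among the shortest genes, and levels per kb of very short transcripts depend on fragment selection in the library, which the files do not describe.

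Of the 93 genes, 87 passed the filter on low counts and were tested. The 6 that did not were RpL22-like and RpS28a, with no count in any library, and RpL10Aa, RpL37b, RpS28-like and RpS10a, with 8, 3, 6 and 71 counts over all 6 libraries. RpL22-like is known as a testis paralog of RpL22, and RpS10a as a gonad copy of RpS10b. The 5 tested genes with the lowest levels were RpS5b, RpS19b, RpS15Ab, RpLP0-like and RpL24-like, all copies or relatives of other members, with means over all libraries of 1.07, 2.74, 31.7, 37.1 and 80.6 CPM.

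Brr2 knockdown left the levels of most ribosomal protein genes without a call. Of the 87 tested genes 6 were called lower and 0 higher (edgeR, adjusted p under 0.05 over all features), which is 6.9% of them, whereas 17.7% of the 11590 tested genes were called, 9.63% lower and 8.05% higher. The share of ribosomal protein genes called was thus below that of all genes. At an unadjusted p under 0.05, 13 were lower and 3 higher, where 19.5% of all tested genes were lower and 16.1% higher. The median log2 fold change was -0.10, against -0.02 over all tested genes, and 76 of the 87 genes had a value between -0.5 and 0.5. The sign of this median rested on 1 library: without control replicate 1 it was 0.06, against 0.02 over all genes, and 36 of 88 tested genes were below 0 in place of 59 of 87. The main fit had no term for the replicate number. Under a replicate block, which pairs libraries of the same number, 8 were called lower and 3 higher, while 25.6% of all genes were called. DESeq2 called 10 lower and 2 higher (19.7% of all genes called), limma voom 8 and 1 (18.3%), upper quartile scaling 2 and 1 (17.6%), a minimum of 5 CPM 5 and 1 (25.4%), and no filter 3 and 0 (7.79%). With the rRNA genes left out, 6 were called lower and 0 higher by edgeR, and 17.5% of all genes were called. Scaled by total counts alone, 37 were called lower and 0 higher, where 24.1% of all genes were called lower; that scaling moved the median of all tested genes to -0.35 and that of the ribosomal protein genes to -0.43. Total counts without the rRNA genes gave 30 lower, where 23.5% of all genes were called lower, with medians of -0.30 over all genes and -0.38 over the ribosomal protein genes. Upper quartile scaling moved them to 0.10 and 0.02.

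**Figure D1:**
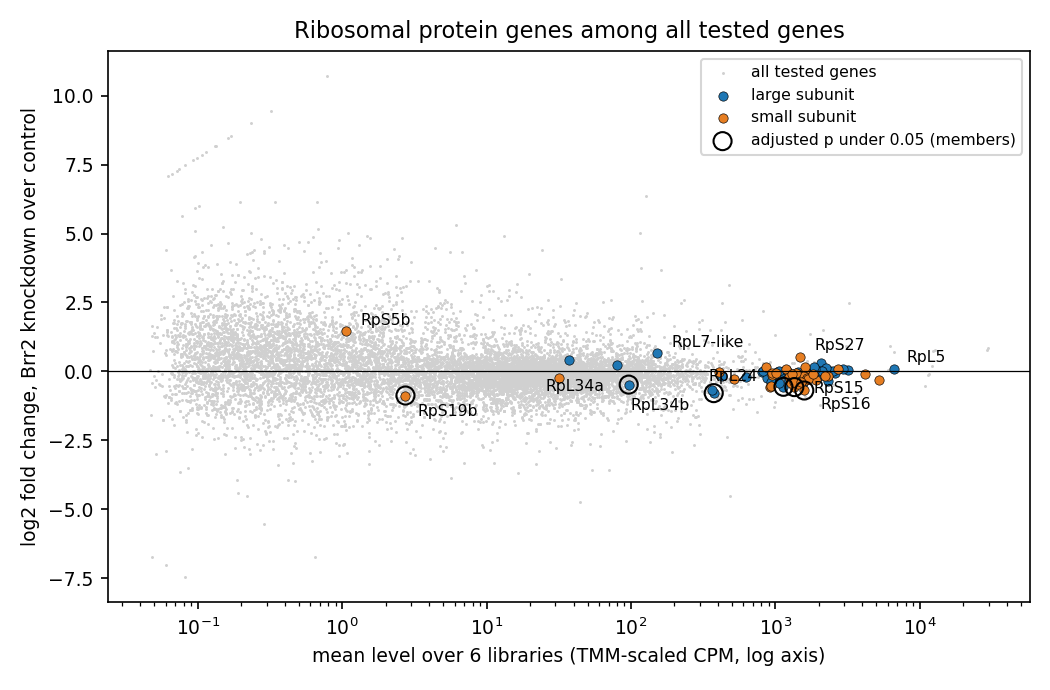
Log2 fold change of knockdown over control against the mean level in TMM-scaled CPM (log axis) for the 11590 tested genes, with 51 large subunit and 36 small subunit genes coloured and the 6 called genes ringed. Most ribosomal protein genes form a tight group at the right, and 76 of all 87 lie between -0.5 and 0.5. The low-level copies RpS5b and RpS19b lie far to the left and outside that band.

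The genes called lower were RpL34b, RpL34a and RpL24 of the large subunit and RpS16, RpS15 and RpS19b of the small subunit. In each of them the 3 knockdown libraries lay below the 3 control libraries. The number called depended on single libraries: it became 1, 2 or 4 when control replicate 1, 2 or 3 was left out, and 0, 2 or 1 when knockdown replicate 1, 2 or 3 was. Over all genes the share called lower was 2.31%, 3.91% or 8.4% without control replicate 1, 2 or 3, and 2.37%, 9.16% or 3.03% without knockdown replicate 1, 2 or 3, so it too was below 9.63% in each of these fits.

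Both genes of the large subunit protein RpL34 were lower. RpL34b (FBgn0037686, 3R, 9400237 to 9401226, minus strand) was at 267.8, 260.1 and 294.6 CPM in knockdown libraries, against 544.2, 455.3 and 422.5 CPM in control libraries. It fell to 57.8% of the control level (log2 -0.79, SE 0.143, edgeR adjusted p = 0.0137). This was the most stable call of the set, lost on leaving out single libraries in 1 case, without knockdown replicate 1 (adjusted p = 0.0608). RpL34a (FBgn0039406, 3R, 26058420 to 26059267, minus strand) was at 79.5, 75.5 and 86.5 CPM in knockdown libraries, against 121.9, 105.5 and 109.6 CPM in control libraries. It fell to 71.7% of the control level (log2 -0.48, SE 0.119, edgeR adjusted p = 0.0357), a call lost without any 1 of the 6 libraries (adjusted p of 0.0547 to 0.12) and with upper quartile scaling (0.0733).

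RpL24, whose protein forms part of a bridge between the subunits, lies on 2L at 13393687 to 13395131 on the minus strand (FBgn0032518). It was at 905.6, 881.5 and 970.4 CPM in knockdown libraries, against 1517, 1232 and 1316 CPM in control libraries (log2 -0.56, SE 0.136, edgeR adjusted p = 0.0334). The call was kept without control replicate 3 and lost without each of the other libraries (0.0593 to 0.118), as well as without a filter (0.0527) or under upper quartile scaling (0.0615).

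Of the small subunit, RpS16, whose tail reaches toward the tRNA in the P site, was at 1183, 1202 and 1249 CPM in knockdown libraries, against 2219, 1800 and 1860 CPM in control libraries. The gene (FBgn0034743, 2R, 22605745 to 22607995, plus strand, 5 introns) fell to 61.8% of its control level, with a log2 fold change of -0.69 (SE 0.137, edgeR adjusted p = 0.0177). The knockdown libraries lay close together and far below the control libraries. The call was lost without control replicate 1 (adjusted p = 0.0504) and without knockdown replicate 1 or 3 (0.078 and 0.0717). RpS15, a protein of the head of the small subunit, is on 2R at 16570112 to 16571230 on the minus strand (FBgn0034138). It was at 1045, 1042 and 1177 CPM in knockdown libraries, against 1813, 1444 and 1592 CPM in control libraries (log2 -0.57, SE 0.142, edgeR adjusted p = 0.0361). That call was lost without any 1 of the libraries (0.0564 to 0.131), with no filter (0.0579) and with upper quartile scaling (0.0641).

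RpS19b, the copy of RpS19 known from the germline, was a low-level gene. It was at 1.79, 1.85 and 2.17 CPM in knockdown libraries, against 4.25, 2.81 and 3.59 CPM in control libraries (log2 -0.88, SE 0.234, edgeR adjusted p = 0.0436). It lost its call without any 1 library (0.0566 to 0.143), with no filter (0.0676) and with upper quartile scaling (0.0624). The germline marker aub was higher in the knockdown libraries, opposite to RpS19b, and its part in this result was not tested.

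**Figure D2:**
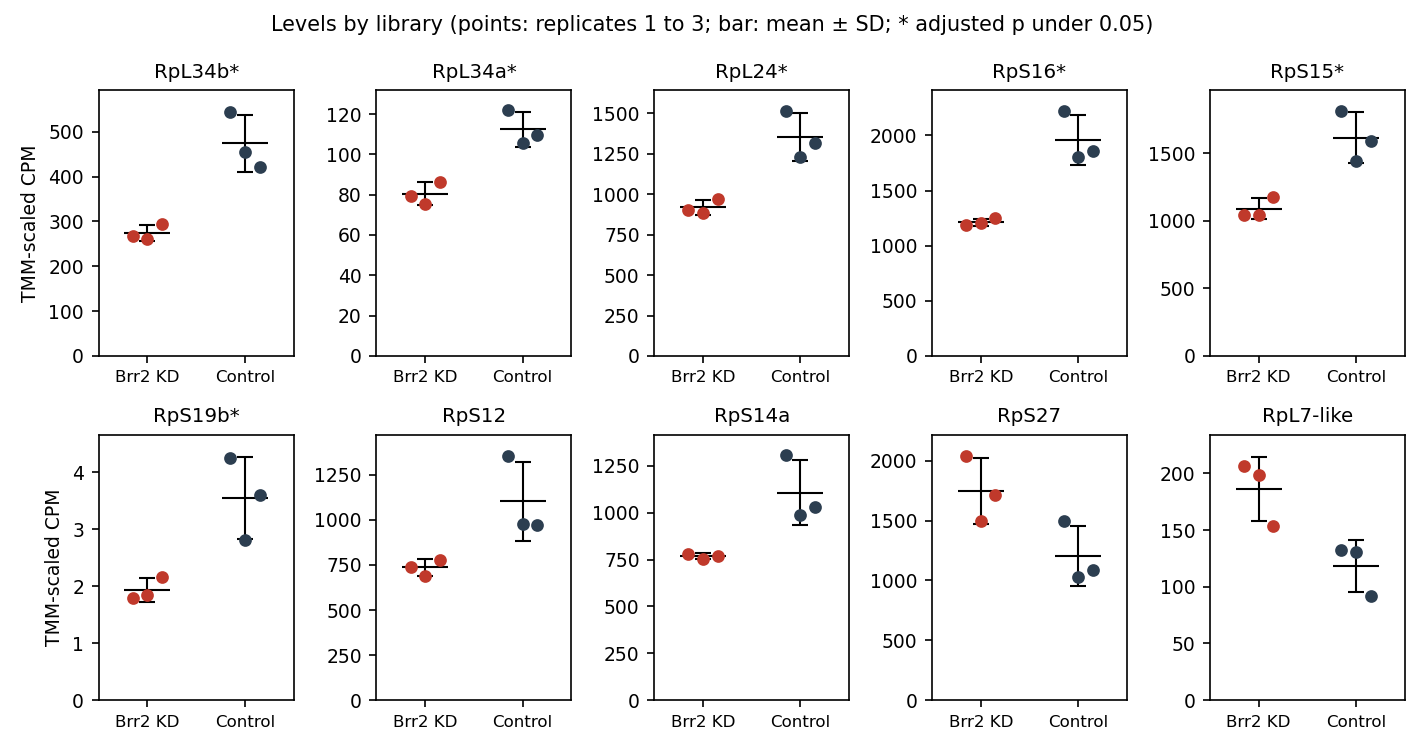
TMM-scaled CPM in each library, with knockdown left and control right of each panel, for the 6 called genes (starred) and 4 others; black bars are the mean ± SD of 3 libraries. In the starred genes every knockdown point lies below every control point, and in RpL7-like every knockdown point lies above.

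Close to the threshold were RpS14a, RpL7-like and RpS12, with edgeR adjusted p of 0.0511, 0.0545 and 0.0547. RpS12, which in Drosophila is needed for the loss of Minute cells in competition with normal cells, was at 740.8, 687.3 and 779.7 CPM in knockdown libraries, against 1355, 979.7 and 973.7 CPM in control libraries (log2 -0.58, SE 0.169). RpL7-like, whose yeast relative Rlp7 acts in the assembly of the large subunit, had the opposite direction. It was at 206.2, 198.8 and 153.5 CPM in knockdown libraries, against 132.4, 130.4 and 92.1 CPM in control libraries (log2 0.65, SE 0.189), and its reads cannot be separated from those of CG34164. Under the replicate block all 3 genes passed, with edgeR adjusted p of 0.0396 for RpS14a, 0.0127 for RpL7-like and 0.0429 for RpS12. All 3 also passed with DESeq2 (0.00598, 0.0131 and 0.00706) and limma voom (0.0421, 0.0496 and 0.0474), RpS14a and RpS12 with total counts alone (0.00863 and 0.00868), and RpL7-like with upper quartile scaling (0.0331) and a minimum of 5 CPM (0.0278). None of them passed without any 1 of the libraries.

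RpS27, a zinc-binding protein of the small subunit, was the abundant gene with the largest positive log2 fold change. It was at 2038, 1493 and 1715 CPM in knockdown libraries, against 1496, 1030 and 1090 CPM in control libraries (log2 0.54, SE 0.197, edgeR adjusted p = 0.102). The groups overlapped by 1 control library, replicate 1. With a replicate block the edgeR adjusted p was 0.0275, and with DESeq2 the adjusted p was 0.0541. RpS27 did not pass on leaving out any 1 library (edgeR adjusted p of 0.0635 to 0.303). RpL39, a small protein of the exit tunnel, had a log2 fold change of -0.69 (SE 0.27, edgeR adjusted p = 0.122) and values of 323.6, 229.9 and 284.4 CPM in knockdown libraries, against 431.1, 298.4 and 618.0 CPM in control libraries. It passed with DESeq2 (0.0365) and with total counts alone (0.0417). Without control replicate 3, the highest library, its log2 fold change was -0.38 (edgeR adjusted p = 0.27).

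Members of known special roles did not pass the test. The stalk proteins, which recruit elongation factors, averaged 1952 ± 180 CPM in knockdown and 1835 ± 142 CPM in control libraries for RpLP0, 3054 ± 474 and 2849 ± 393 CPM for RpLP1, and 1950 ± 197 and 1762 ± 113 CPM for RpLP2 (SD, n = 3 each, knockdown before control). RpS6, the substrate of S6 kinase, was at 1156 ± 50.4 CPM in knockdown and 1515 ± 266 CPM in control libraries, with no overlap between groups (edgeR adjusted p = 0.131). The genes that also encode ubiquitin, RpS27A and RpL40, were at 1530 ± 126 and 823.0 ± 125 CPM in knockdown libraries, against 1792 ± 310 and 808.8 ± 145 CPM in control libraries. The gene sta was at 2099 ± 201 CPM in knockdown and 2343 ± 458 CPM in control libraries.

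The genes varied together from library to library. Within the control group, replicate 1 had the highest level in 82 of the 87 tested genes, and within the knockdown group replicate 1 was highest in 71 and replicate 2 lowest in 75. For 53 of the 87 genes the deviations from the group means correlated at over 0.9 with those of the summed level (median 0.947; a description over 6 libraries, in which each gene is part of the sum and all share the same scaling). The coefficient of variation had a median of 9.31% among knockdown and 17.5% among control libraries. Expressed as a share of the counts of all 93 genes in the same library, it was 4.74% among knockdown and 6.27% among control libraries.

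The large to small subunit ratio did not overlap between the groups, while the sums did. Summed over the 54 large subunit genes, levels were 84322, 70479 and 75960 CPM in knockdown libraries, against 94175, 72443 and 73193 CPM in control libraries. Summed over the 39 small subunit genes they were 53936, 46621 and 49598 CPM in knockdown libraries, against 67585, 52174 and 50753 CPM in control libraries. The sums had log2 ratios of the means of -0.06 for the large and -0.18 for the small subunit. With upper quartile scaling these were 0.07 and -0.06, and with total counts only -0.39 and -0.51. The ratio of the sums, which does not depend on scaling, was 1.56, 1.51 and 1.53 in knockdown libraries, against 1.39, 1.39 and 1.44 in control libraries. All knockdown libraries lay above all control libraries, and the difference of the means was 0.128, and 0.114 to 0.145 on leaving out single libraries. It was 0.101 without RpL5 and RpS7, the most abundant genes of each subunit. No test was made of the ratio. An exact 2-sided permutation test of 3 against 3 libraries cannot go below p = 0.1.

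**Figure D3:**
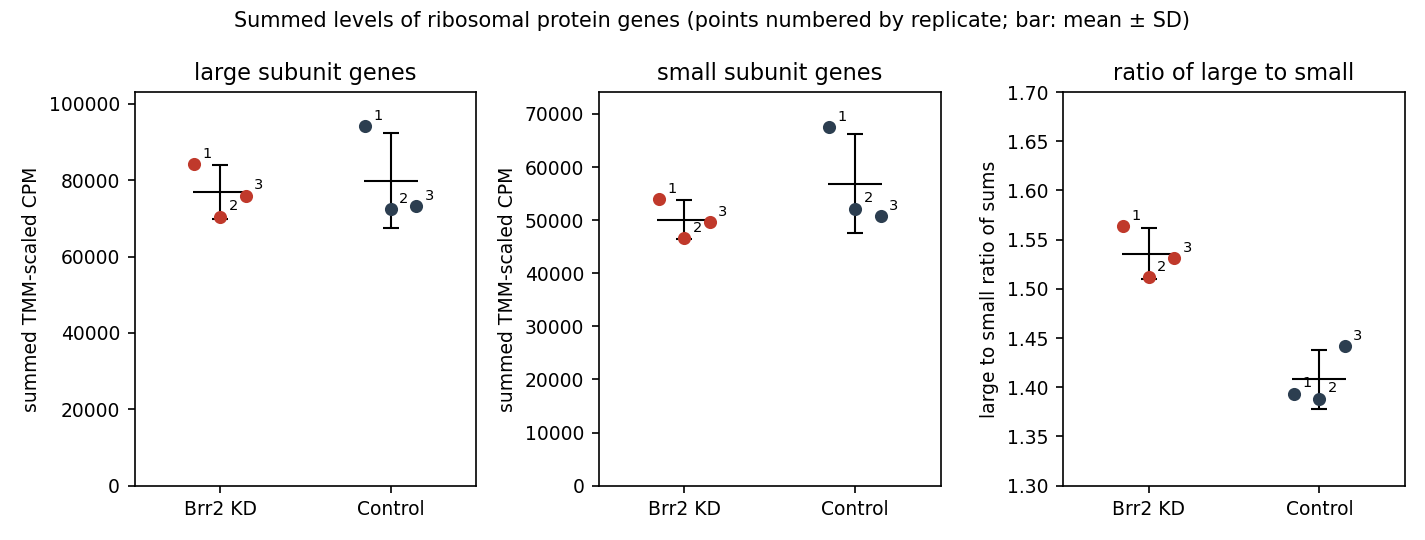
Summed TMM-scaled CPM of the large and small subunit genes, and the large to small ratio, by library (points numbered by replicate, bars mean ± SD, n = 3 each; the axis of the ratio starts at 1.3). The sums overlap between knockdown and control, and the ratio lies at 1.51 to 1.56 in knockdown and 1.39 to 1.44 in control libraries.

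Gene by gene, 30 of 51 tested large subunit genes had a log2 fold change below 0 (median -0.06), and 29 of 36 tested small subunit genes did (median -0.17). Without control replicate 1 the medians were 0.10 for the large and -0.01 for the small subunit, and with upper quartile scaling they were 0.06 and -0.05, with 41 of all 87 genes below 0. Among large subunit genes 7 (13.7%) had all knockdown below all control libraries, among small subunit genes 12 (33.3%), where 21.7% of all tested genes did so. In the opposite direction it was 1 gene of each subunit, RpL7-like and RpS5b, where 20.1% of all tested genes did so. Over both subunits these counts are 19 lower and 2 higher, and without control replicate 1, the library with the highest sums, they were 20 and 13, where 25.3% of all tested genes were lower and 24.0% higher without overlap. Of each subunit 3 genes were called, and no test was made of the difference between the lists.

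As a share of the counts of all 93 genes in the same library, 15 of 36 small subunit genes (41.7%) were lower in every knockdown library and 7 (19.4%) higher, against 8 (15.7%) and 13 (25.5%) of the 51 large subunit genes. Scaled in the same way, 12.7% of all tested genes were lower without overlap and 21.9% higher. RpS27 held 1.47%, 1.28% and 1.37% of the ribosomal protein counts in knockdown libraries, against 0.925%, 0.826% and 0.88% in control libraries. RpS16 held 0.856%, 1.03% and 0.995% in knockdown libraries, against 1.37%, 1.44% and 1.5% in control libraries. In an edgeR fit scaled to these summed counts, RpS27 was called higher (log2 0.65, adjusted p = 0.0345) and RpS16 (log2 -0.59, adjusted p = 0.049) and RpL34b (log2 -0.68, adjusted p = 0.0382) lower, while 9.97% of all tested genes were called. With a replicate block this scaling gave 6 genes lower and 4 higher, where 23.6% of all genes were called. This scaling was chosen after seeing the data, and leaving out any 1 library left no ribosomal protein gene called in that fit, where the share of all genes called was 3.69% to 9.99%. RpL21, a large subunit protein, held 1.77%, 1.76% and 1.85% in knockdown libraries, against 1.3%, 1.22% and 1.53% in control libraries, while its level was not called (edgeR adjusted p = 0.232, log2 0.31, and 0.19 without control replicate 2). The ribosomal proteins RpL5 and RpL11, which join 5S rRNA before assembly, were not called in either fit, while their shares did not overlap between groups. RpL5 held 5.54%, 5.35% and 5.16% in knockdown libraries, against 5.12%, 4.64% and 4.04% in control libraries. RpL11 went the other way, at 1.22%, 1.22% and 1.26% in knockdown libraries, against 1.33%, 1.33% and 1.27% in control libraries.

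Among paralog pairs, the shares of the copies did not overlap between groups for RpL34a, RpS14b and RpS19b, and overlapped for RpS15Ab. RpL34a made up 22.9%, 22.5% and 22.7% of the RpL34 counts in knockdown libraries, against 18.3%, 18.8% and 20.6% in control libraries, so that the less abundant copy had the larger share although both were lower. RpS14b, which encodes the same protein as its tandem neighbour RpS14a, made up 39.4%, 36.2% and 37.3% of their counts in knockdown libraries, against 35.8%, 34.3% and 30.1% in control libraries. Reads of such near-identical copies may have been split in ways the sources used here do not give.

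RpS5b, a germline copy, was at 206, 194 and 170 counts in knockdown libraries, against 125, 31 and 98 counts in control libraries. The groups did not overlap. RpS5b had a log2 fold change of 1.47 (SE 0.492, edgeR adjusted p = 0.0811), and its adjusted p was 0.0469 under the replicate block and 0.0225 with DESeq2. It did not pass on leaving out any 1 library (edgeR adjusted p of 0.0792 to 0.228). Without control replicate 2 its log2 fold change was 1.09. The germline marker aub rose, while vas, nos and bam stayed under 1 CPM; their part in the level of RpS5b was not tested. RpS19b differed the other way, at 0.117%, 0.138% and 0.148% of the RpS19 counts in knockdown libraries, against 0.192%, 0.17% and 0.229% in control libraries.

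The share of RpS15Ab, an intronless copy of RpS15Aa, overlapped between groups, at 1.77% ± 0.13 in knockdown and 2.11% ± 0.719 in control libraries (SD, n = 3 each; exact 2-sided permutation test p = 0.8). For RpL34a, RpS14b and RpS19b the exact 2-sided permutation test gave p = 0.1, the smallest that 3 against 3 allows, and 0.125 adjusted over the 5 pairs tested. In 6 further comparisons the second copy did not pass the filter. For RpL22-like, a count of 0 in every library allows a share of the RpL22 counts of up to 0.00273%, and for RpS28a a share of the RpS28 counts of up to 0.00193%, for counting error only.

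**Figure D4:**
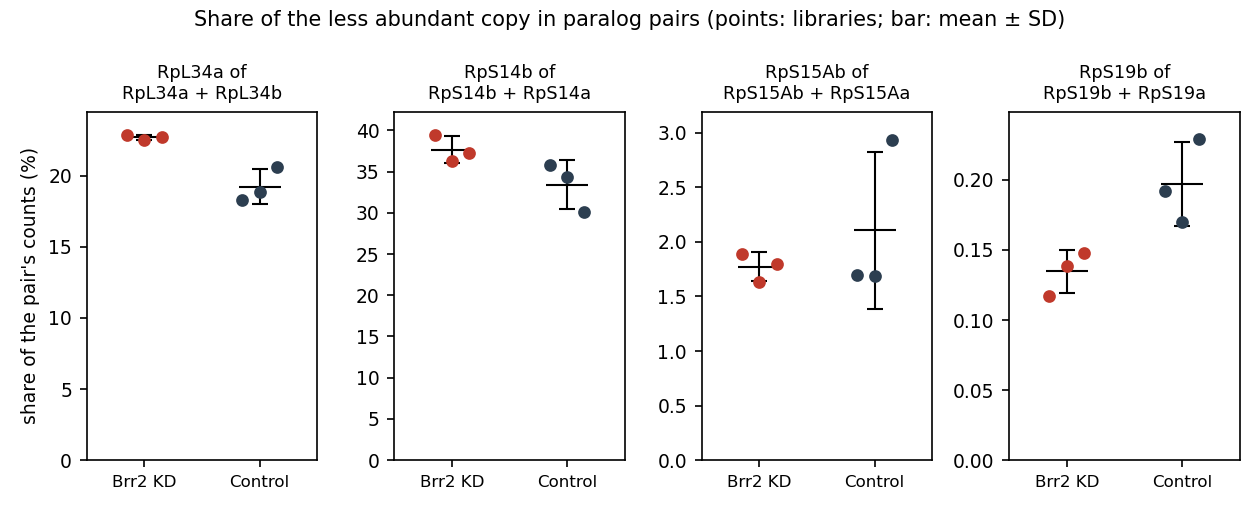
Share of the less abundant copy in the counts of its pair (percent) by library, knockdown left and control right, with mean ± SD (n = 3 each). RpL34a and RpS14b have larger shares in every knockdown library, RpS19b has smaller ones, and RpS15Ab overlaps.

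The snoRNA genes inside ribosomal protein introns had higher fold changes than their hosts. Of the 75, 67 passed the filter, and 28 of these were called higher and 0 lower, with a median log2 fold change of 1.13, where 8.05% of all tested genes were called higher. They are not independent of each other, since RpS5a alone holds 14 of the 75, several of them near-identical copies. At the 27 hosts of these 67, the snoRNA gene had the higher log2 fold change in 65 cases. Among the other 169 tested snoRNA and scaRNA genes 24 were called higher and 0 lower, with a median of 0.79. The 29 host genes had a median log2 fold change of -0.14, with 1 called, RpS16, and the 58 tested genes without a snoRNA one of -0.06, with 5 called. Leaving out control replicate 1 or 2 gave 9 or 8 nested snoRNA genes called, and leaving out knockdown replicate 1 or 3 gave 9 or 12. The share of all genes called higher was smaller in these fits too, at 3.39% and 3.5% without control replicate 1 or 2 and at 2.83% and 3.46% without knockdown replicate 1 or 3. Total counts alone gave 15 (4.94% of all genes called higher), no filter 17 (3.7%) and a minimum of 5 CPM 17 (12.1%).

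Relative to the counts of the host gene, a measure free of scaling, the nested snoRNA genes together held 8.14, 5.18 and 6.03 counts per 1000 host counts in knockdown libraries, against 1.95, 2.3 and 3.49 in control libraries. Much of the snoRNA sum came from the hosts RpS7 and RpS5a. They gave 167.5 and 138.9 of 479.8 CPM in knockdown replicate 1, and 49.5 and 38.0 of 140.0 CPM in control replicate 1. Of 27 hosts with at least 3 snoRNA counts in every library, 18 had a higher ratio in every knockdown library than in any control library, 9 overlapped and 0 were lower throughout. Relative to the summed ribosomal protein counts, 21.9% of all tested genes were higher without overlap. The same count was not made for snoRNA genes outside these hosts. Leaving out control replicate 3, the control library with the highest overall ratio, 25 hosts were higher throughout, and leaving out knockdown replicate 1 it was 19. Such a count can only stay or rise when a library is left out, so it is no check of stability. Hosts below that minimum were RpS6 and RpS9.

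The host with most snoRNA genes, RpS5a, had 59.2, 39.3 and 44.8 snoRNA counts per 1000 host counts in knockdown libraries, against 13.1, 14.5 and 22.7 in control libraries. Its own level was 2346, 2087 and 2111 CPM in knockdown libraries, against 2900, 2307 and 2172 CPM in control libraries. The snoRNA ratio thus did not overlap between the groups, and the level of the host did. One of its guides for pseudouridine, snoRNA:Psi28S-1135a (X, 17146612 to 17146759, minus strand), was at 10.1, 6.63 and 7.64 CPM in knockdown libraries, against 1.18, 1.07 and 2.07 CPM in control libraries (log2 2.49, SE 0.32, edgeR adjusted p = 0.00589). RpS5a holds several near-identical copies of this guide, so reads may be shared among them.

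RpS16, the called host, had 37.6, 19.7 and 23.1 snoRNA counts per 1000 host counts in knockdown libraries, against 5.6, 5.7 and 9.15 in control libraries. RpS7 had 34.3, 18.4 and 23.1 in knockdown libraries, against 7.49, 8.02 and 10.1 in control libraries. Its snoRNA:Psi28S-2626, among the most abundant of the nested genes, was at 61.9, 31.7 and 38.9 CPM in knockdown libraries, against 15.2, 12.9 and 14.0 CPM in control libraries (log2 1.65, SE 0.248, edgeR adjusted p = 0.00869). In RpS12, snoRNA:Me28S-A774a was at 1.56, 0.535 and 1.0 CPM in knockdown libraries, against 0.021, 0.0788 and 0.0491 CPM in control libraries (log2 4.35, SE 0.642, edgeR adjusted p = 0.00835). The calls of snoRNA:Psi28S-2626, snoRNA:Me28S-A774a and snoRNA:Psi28S-1135a were kept without any 1 of the 6 libraries. RpL3, RpL23A and RpS3A were among the hosts that overlapped, and the mean ratio was lower in knockdown libraries for RpL3 and RpS3A. For RpL3 the ratios were 5.89, 3.94 and 7.13 in knockdown libraries, against 3.21, 3.57 and 10.2 in control libraries. Its direction thus rested on control replicate 3. RpS3A had only 7 to 45 snoRNA counts per library. A count within a snoRNA gene does not separate the mature snoRNA from unspliced host RNA, and a few of these snoRNA genes also overlap an annotated exon of the host.

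**Figure D5:**
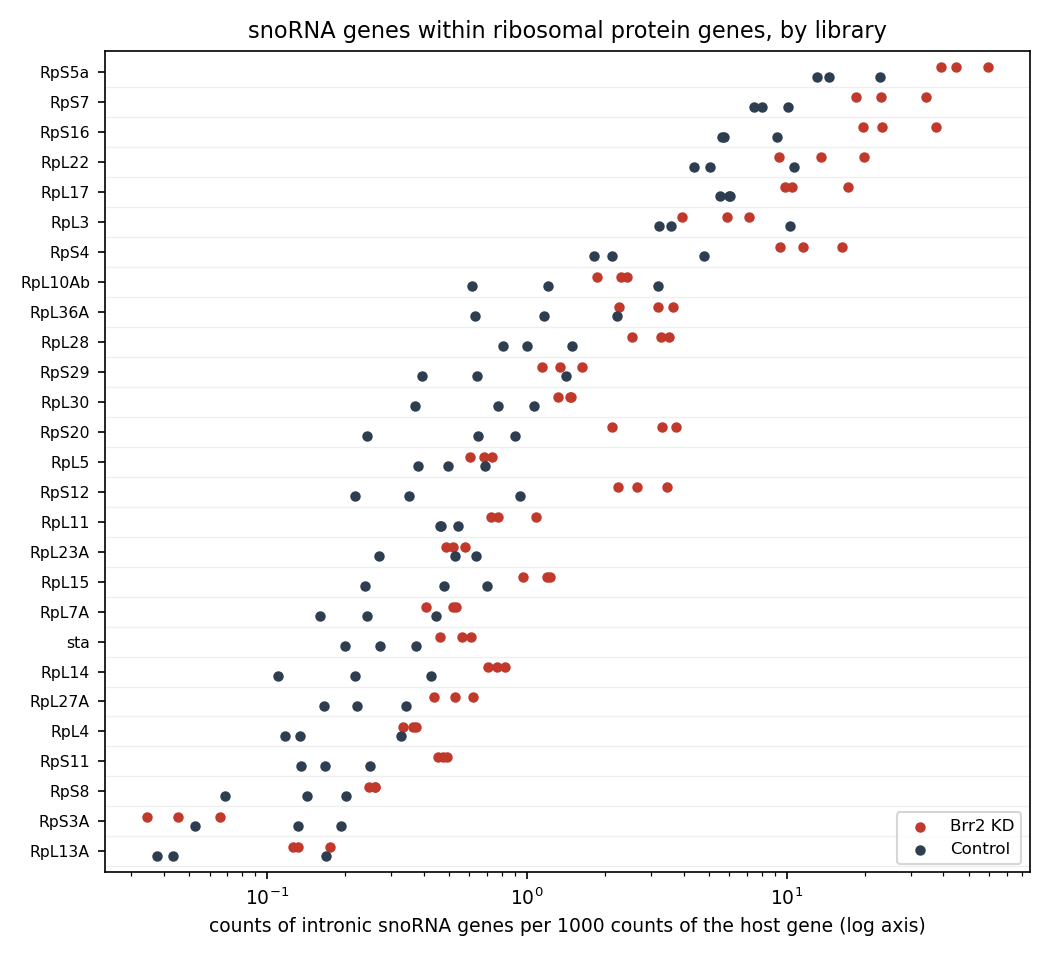
Counts of intronic snoRNA genes per 1000 counts of the host gene (log axis) in each library, for the 27 hosts with at least 3 snoRNA counts in every library; knockdown points are drawn above control points in each row. In 18 rows all knockdown points lie right of all control points.

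Length, introns and level were set against the fold change over the 84 tested genes without -like in the symbol. Across these genes, which are not independent replicates and share the same 6 libraries, Spearman's rho with the log2 fold change was 0.0778 for exon length, -0.0718 for the number of introns and 0.256 for the level per kb. Of 15 genes on the X chromosome 0 were called by edgeR and of 72 on autosomes 6, where 17.7% of all tested genes were called. At an unadjusted p under 0.05, 4 were lower on the X chromosome, and 9 lower and 3 higher on autosomes. Over all tested genes 19.5% were lower and 16.1% higher at that threshold. Median log2 fold changes were -0.17 on the X chromosome and -0.08 on autosomes, with 14 of 15 and 45 of 72 genes below 0.

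A list of 10 genes held 7 translation elongation factors together with Nacalpha and bic, subunits of the complex that binds nascent chains, and Rack1, a scaffold on the small subunit. Of the 10, 2 rose and 0 fell (median log2 0.07), both of them elongation factors (median log2 of the 7 elongation factors -0.00495). Over all tested genes 8.05% were called higher and 9.63% lower, which is the background for this list and the next ones. eEF2, which moves the ribosome along the message, was at 9198, 7919 and 7435 CPM in knockdown libraries, against 5275, 5361 and 4481 CPM in control libraries (log2 0.70, SE 0.152, edgeR adjusted p = 0.0235). The other was eEF1alpha2, at under 1 CPM in all libraries, whose call was lost under the replicate block (edgeR adjusted p = 0.0715). The abundant eEF1alpha1 was at 14390, 12456 and 11533 CPM in knockdown libraries, against 13243, 11932 and 8772 CPM in control libraries, and did not pass. Of 28 measured genes (of 29 listed) in a list of ribosome assembly factors, nucleolar and cytoplasmic, 3 rose and 0 fell (median log2 0.31), and the count is near the background. At an unadjusted edgeR p under 0.05, 8 were higher and 0 lower, where 16.1% of all tested genes were higher and 19.5% lower. The list holds RpL7-like, RpL24-like and RpLP0-like as well, and pes, which encodes a scavenger receptor and no assembly factor. Without pes, which was not called, 3 of 27 genes were called higher (median log2 0.32). Both subsets were formed after seeing the data.

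Of the 3 assembly genes called, eIF6, which keeps the large subunit from joining the small one too early, was at 154.1, 107.1 and 151.3 CPM in knockdown libraries, against 45.0, 52.1 and 74.6 CPM in control libraries (log2 1.26, SE 0.231, edgeR adjusted p = 0.0141). RIOK1 and RIOK2, kinases of small subunit maturation, rose 2.16-fold and 1.83-fold, with edgeR adjusted p of 0.037 and 0.0163. Of 8 core proteins of snoRNPs 0 passed edgeR (0 also at an unadjusted p under 0.05), and of 10 genes of RNA polymerase I 1 rose, Tif-IA (log2 0.59, edgeR adjusted p = 0.044).

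Of 15 genes listed as regulators of ribosomal protein genes or their mRNAs 2 rose and 2 fell, which is few genes to set against the background. Xrp1, the transcription factor that acts in cells short of a ribosomal protein, was at 690.9, 560.7 and 571.6 CPM in knockdown libraries, against 302.0, 343.9 and 268.5 CPM in control libraries (log2 1.00, SE 0.154, edgeR adjusted p = 0.00948), and its partner Irbp18 rose 2.22-fold (adjusted p = 0.025). Dref fell to 0.646 and Mnt, a partner of Max that opposes Myc, to 0.449 of the control level. Myc itself and S6k did not pass. Xrp1 kept its call without any 1 library. eEF2, RIOK1, RIOK2, eIF6 and Mnt lost theirs when control replicate 1 or 2, or knockdown replicate 1 or 3, was left out (0.0505 to 0.129), and Dref on omission of control replicate 1 or of knockdown replicate 1 or 3 (0.0501 to 0.0573). Irbp18 lost it on omission of control replicate 2 or of knockdown replicate 1 or 3 (0.0656 to 0.095), Tif-IA without any library but control replicate 3 (0.0553 to 0.149), and eEF1alpha2 without any of the 6 (0.0814 to 0.154). Neither eEF1alpha2, eEF2, RIOK1, RIOK2 nor Tif-IA passed when total counts alone set the scale, and eEF1alpha2, eEF2, RIOK1 and Tif-IA did not pass without a filter.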

How the data were processed

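RNA was measured in 6 libraries of S2 cells. The authors deposited unscaled estimated counts of genes and transposon copies, which are whole numbers; Trimmomatic, TopHat2 and build BDGP6 are named, without versions, in the submitters' processing notes, and the counting tool, its use of strand and its treatment of reads with several hits are not named there. Positions, exon lengths and introns came from the Ensembl release 115 annotation of BDGP6.54, matched by identifier for all 93 genes; the notes name no release of BDGP6. The fit covered 14167 features with edgeR 4.0.16 under R 4.3.3 (TMM, filterByExpr, glmQLFit, then glmQLFTest, Benjamini-Hochberg adjustment, threshold 0.05), and the test was checked on simulated counts. A standard error is the size of the log2 fold change divided by the root of its F statistic. Alternatives used limma 3.58.1 and DESeq2 1.42.0, other scalings and filters, a replicate block, the omission of single libraries and, chosen after seeing the data, of genes with rRNA in the symbol. Shares of pairs were compared by exact permutation tests with scipy 1.17.1.

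The groups share replicate numbers in the labels, which state no pairing. Between libraries of the same number, deviations from group means had correlations of 0.16 to 0.317, and between others of -0.229 to 0.0506. Deviations cancel out within a group, so these correlations are not independent of each other. The numbers were used as pairs in the replicate block only, and the main fit had no term for them. Libraries of a group differed by more than sampling noise (chi-square over its degrees of freedom 113.7 to 1577). The genes and lists were chosen with earlier results of these data known. Genes were named by rule: every called gene, the paralog pairs, stalk proteins, sta, RpS6, RpS27A and RpL40, the extremes of level per kb, the 5 uncalled genes with the largest log2 fold change, and called genes of the lists. RpS14a, RpL21, RpL3, RpS7, RpS9, RpL11 and the named snoRNA genes and hosts were added after their values were seen. Values of some items are not reported here.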

Additional observations from a re-analysis of the deposited data

How the results depend on the processing

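Against 6 genes called lower and 0 higher, total counts only gave 37 lower (30 with rRNA genes left out, chosen after seeing the data), upper quartile scaling 2 lower and 1 higher, DESeq2 10 lower and 2 higher, and no filter 3 lower. Limma voom gave 8 lower and 1 higher, a minimum of 5 CPM 5 lower and 1 higher, and a replicate block for the pairing 8 lower and 3 higher. Scaling to the ribosomal protein counts, chosen after seeing the data, gave 2 lower and 1 higher, and with a replicate block 6 lower and 4 higher; without single libraries it gave 0 either way, and 9, 11, 12 or more nested snoRNA genes. Leaving out single libraries gave 0 to 4 lower and 0 to 1 higher. The nested snoRNA genes called, 28, became 15 with total counts only, 17 with no filter and 17 with a minimum of 5 CPM, and ranged from 8 to 30 without single libraries. With total counts only, the log2 ratio of summed levels was -0.39 for the large and -0.51 for the small subunit; the large subunit value ranged from -0.13 to 0.08 without single libraries and the small one from -0.26 to -0.04. The log2 fold change of RpL21 became -0.0316 with total counts only. The share difference of RpS15Ab was -0.333 percentage points, and -0.542 to 0.0825 without single libraries. Pairing by replicate number leaves the mean difference of a paralog share as it is by construction, and gave an exact p of 0.25 for RpL34a, RpS14b and RpS19b, the smallest 3 pairs allow. The causes of these shifts were not tested. Counts near 0 limit RpS10a, RpL10Aa, RpL37b and RpS28-like.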
